A study of Mus musculus with 9 samples.

Results

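The genes described here encode the nuclear subunits of the oxidative phosphorylation machinery, measured in 3 sorted cell populations of the mouse hair follicle. They were chosen by symbol alone: a gene counted where a probe set pointed to it and to no other gene, and where its symbol began with Nduf and a letter a, b, c, s or v, with Cox4 to Cox8, with Atp5 or with Uqcr, or was Sdha, Sdhb, Sdhc or Sdhd. This gave 78 genes, carried by 147 probe sets, of 12393 named genes and 20380 such probe sets on the array. Complex I was represented by 32 genes, complex II by 4, complex III by 8, complex IV by 17 (Ndufa4 among them, which is now placed in that complex) and complex V by 17. Each gene was read from the probe set with the highest mean signal. Levels below are log2(signal + 16), where signal is the deposited array intensity, and 1 unit is a doubling.

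The study collected back skin from female CD1 mice (an outbred stock) that carried the Lef1RFP and K14H2BGFP reporters, a red protein under Lef1 control and a green histone under keratin 14 control. All 9 arrays share this genotype. Dermal papilla cells, the mesenchymal signalling centre at the follicle base, came from the collagenase supernatant and were sorted as RFP+ GFP- and negative for CD45, CD117 and Itga7, with CD34 added in the titles. Hair germ cells came from the trypsin supernatant as RFP- GFP+ CD34- and P-cadherin high, and bulge cells, which hold the follicle stem cells, came from the same supernatant as RFP- GFP+ CD34+ and P-cadherin low. Each population was taken on postnatal days 43, 56 and 69, labelled early, middle and late telogen (the resting phase before regrowth), with 1 array per population and day. The 3 days therefore stand in as replicates of a population: an SD below is over 3 days, and whether the arrays came from separate animals is not stated. Sorted cells were pooled into 1 RNA sample, so fewer cells of a type and less RNA per cell cannot be told apart.

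In oxidative phosphorylation, complexes I and II feed electrons from NADH and succinate into the inner mitochondrial membrane. Complex III passes them to cytochrome c, complex IV hands them to oxygen, and complex V, the ATP synthase, uses the resulting proton gradient to make ATP. Apart from a small set of core subunits made in the mitochondrion itself, the subunits are nuclear genes, and several complex IV subunits exist as tissue-restricted isoforms. Hair follicle stem cells are known for a strongly glycolytic metabolism that shifts as the hair cycle starts.

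The labels held for the most direct markers. Cd34 was at 5.36 in dermal papilla, 4.70 in hair germ and 11.69 in bulge (means of 3), and Crabp1, a dermal papilla marker, was at 13.04, 5.20 and 4.74 in the same order. Cdh3, which encodes P-cadherin, read below the array median on all 9 arrays, so this sort marker could not be checked. The 10 skeletal muscle markers were below the array median in all 3 populations. Melanocyte markers had a summed signal of 394 to 709 in dermal papilla, 2215 to 5000 in hair germ and 2269 to 2991 in bulge. Ptprc, which encodes the leukocyte marker CD45, averaged 4.35, 5.84 and 7.17 in the same order. Adipocyte markers had a summed signal of 280, 641 and 1434 in dermal papilla on days 43, 56 and 69. Their sum was 204 to 440 in hair germ and 61.1 to 141 in bulge. The part of such other cells in the results below was not tested. The day 43 dermal papilla array had more epithelial signal than its later days, with the keratin gene Krt15 at 8.13 on day 43, then 4.29 and 4.06. Krt15 averaged 13.10 in hair germ and 13.07 in bulge, so it did not separate the 2 epithelial populations. The GAPDH 3'/5' ratio, which increases as transcripts lose their 5' parts, also differed. Over the successive days it was 6.62, 4.13 and 3.77 in dermal papilla, 8.34, 2.97 and 7.90 in hair germ and 4.46, 5.09 and 3.96 in bulge. The RNA went through repeated amplification, so RNA integrity and amplification cannot be told apart in this ratio. Array number limits the precision throughout, and p-values measure the spread between these arrays, which may be partly technical. The part of either measure in the results below was not tested, and counts or values without the 3 arrays above a ratio of 6 are given with each comparison.

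Of the 78 genes, 73 lay above their array's own median in at least 3 of 9 arrays and were tested. The other 5 were Cox4i2, Cox6a2, Cox7a1 and Cox8b of complex IV and Ndufb1 of complex I. Cox6a2, Cox7a1 and Cox8b encode the heart and skeletal muscle forms of their subunits, and Cox4i2 the lung form of subunit 4. Cox6a2 lay between 5.20 and 5.80 on the 9 arrays and Cox7a1 between 4.36 and 5.01, with array medians of 5.81 to 6.18. All 3 muscle isoforms therefore stayed below the lowest array median. Across the 9 arrays the 73 tested genes varied by a median SD of 0.376, against 0.468 for all 7796 genes tested and 0.407 for the 784 genes at or above the subunit genes' median level of 9.82. The widest range belonged to Cox6b2, at 4.48 units, and the narrowest to Ndufs1, a core iron-sulfur subunit of complex I, which stayed between 8.75 and 9.06. The heat map of every tested subunit gene by array shows Cox6b2 apart from the other members of complex IV.

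**Figure D1:**
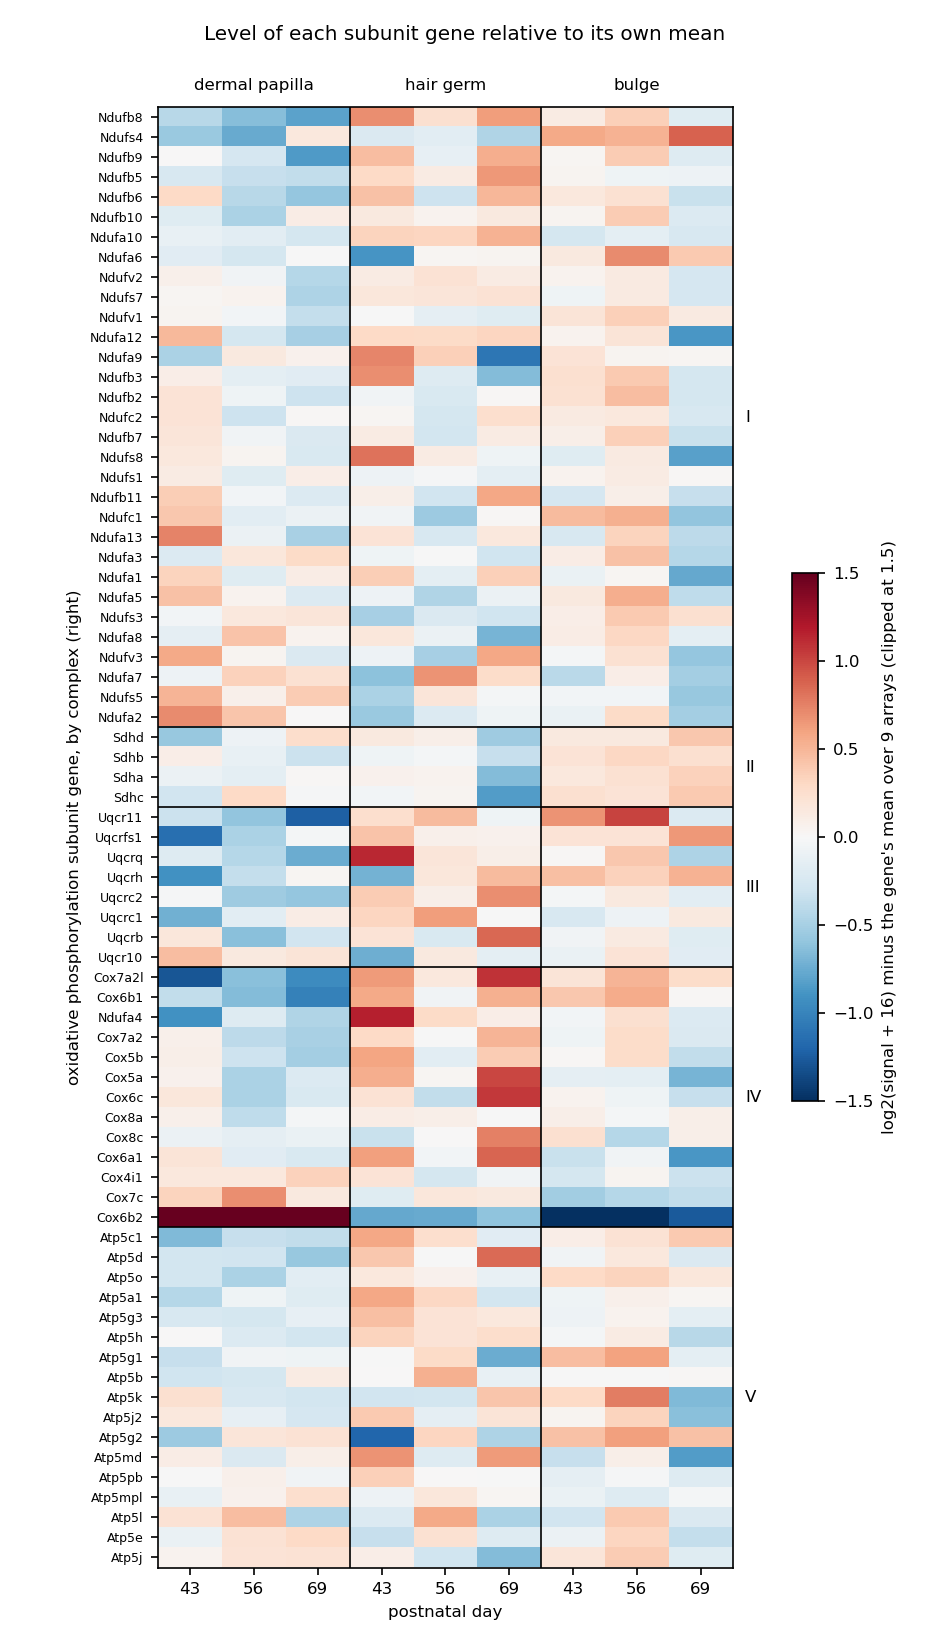
Heat map of the 73 tested subunit genes (rows, grouped by complex I to V and ordered within a complex by the fitted difference of dermal papilla from the epithelial mean) on the 9 arrays (columns, by population and postnatal day). Colour is the log2(signal + 16) level minus the gene's own mean over 9 arrays, clipped at 1.5 either way; Cox6b2 is high in all 3 dermal papilla arrays, and Cox7a2l, Cox6b1 and Ndufb8 are low there.

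The first comparison set the mesenchymal dermal papilla, whose signals to the epithelium the study sought, against the epithelial mean, that is the average of the hair germ and bulge coefficients. A few subunit genes differed and most did not pass the test: 2 were higher and 11 lower in dermal papilla, and 60 of 73 did not pass (limma, Benjamini-Hochberg adjusted p below 0.05 over all genes tested). The largest rise was in Cox6b2, the testis-type isoform of a small complex IV subunit, and its widespread paralog Cox6b1 fell. Complex III held 5 of the lower genes among its 8 members and complex IV 3 among 13, while complex I, the largest, held 2 among 31, complex V 1 among 17 and complex II 0 of 4. Across all genes tested 16.6% were higher and 23.7% lower in dermal papilla, 40.3% in all, and 17.8% of the subunit genes passed in either direction. Among the 784 genes of at least the subunit genes' median level 33.3% passed, and among the 37 subunit genes that bright 13.5% did.

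Cox6b2 stood at 8.41, 8.66 and 7.83 in dermal papilla (early, middle and late telogen, as in every run of 3 values below), at 5.20, 5.21 and 5.37 in hair germ and at 4.18, 4.19 and 4.71 in bulge. The dermal papilla arrays were all above the epithelial ones with no overlap, and the 6 epithelial arrays lay below their array medians. Cox6b2 therefore met the filter of at least 3 arrays only through dermal papilla, the group in which it is high. Its p-value cannot be read apart from that filter, and the filter in all 9 arrays left the gene out. The fitted difference was 3.49 ± 0.26 (SE; limma, adjusted p = 1.53e-06), 11.2-fold on this scale, and because the epithelial values are near the floor it ran from 2.24 to 3.99 over the alternatives, the lowest with a pseudocount of 64 and the highest with 8. In mouse and human, Cox6b2 is best known from testis and sperm. The separate contrasts gave 3.04 ± 0.30 over hair germ and 3.94 ± 0.30 over bulge (limma, adjusted p = 1.63e-05 and 2.18e-06).

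Cox6b1, the ubiquitous isoform of the same subunit, was at 11.05, 10.77 and 10.41 in dermal papilla, at 11.99, 11.37 and 11.96 in hair germ and at 11.82, 11.97 and 11.43 in bulge. All dermal papilla arrays were below all epithelial arrays. It was lower in dermal papilla by a log2 difference of -1.01 ± 0.21 (limma, adjusted p = 0.00289), and its other kept probe set gave -1.04. The isoforms of subunit 6B thus moved in opposite directions between the same cells.

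Cox7a2l, also called SCAF1 or Cox7rp, links complex III to complex IV in respiratory supercomplexes. Its level was 9.78, 10.43 and 10.11 in dermal papilla, 11.70, 11.21 and 12.14 in hair germ and 11.24, 11.56 and 11.33 in bulge. The groups did not overlap, and the difference was -1.42 ± 0.23 (limma, adjusted p = 0.000474), the largest decrease among the subunit genes. Its 3 probe sets gave -1.42, -1.36 and -0.93. Its relative Cox7a2, the common liver-type isoform of subunit 7A, differed by -0.40 ± 0.21 and did not pass (limma, adjusted p = 0.165).

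Uqcr11, the smallest subunit of complex III, was at 8.26, 8.0 and 7.37 in dermal papilla, at 8.84, 9.06 and 8.52 in hair germ and at 9.26, 9.60 and 8.39 in bulge. Day 69 was its lowest day in each population, yet the highest dermal papilla array stayed below the lowest epithelial one. The difference was -1.07 ± 0.19 (limma, adjusted p = 0.00094). Ndufb8, an accessory subunit of complex I whose protein is widely blotted as a readout of the assembled complex, was at 9.16, 8.94 and 8.78 in dermal papilla, at 10.28, 9.81 and 10.21 in hair germ and at 9.70, 9.93 and 9.39 in bulge. It too showed no overlap, with a difference of -0.92 ± 0.19 (limma, adjusted p = 0.00235). These 5 genes (Cox6b2, Cox6b1, Cox7a2l, Uqcr11 and Ndufb8) passed under every alternative run for them, among them the leaving out of each array in turn, of the 3 arrays with a GAPDH ratio above 6, and of the early dermal papilla array together with the late hair germ array. The setting of probe sets without a suffix was not run for Cox7a2l and Ndufb8, which had no such probe set kept.

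**Figure D2:**
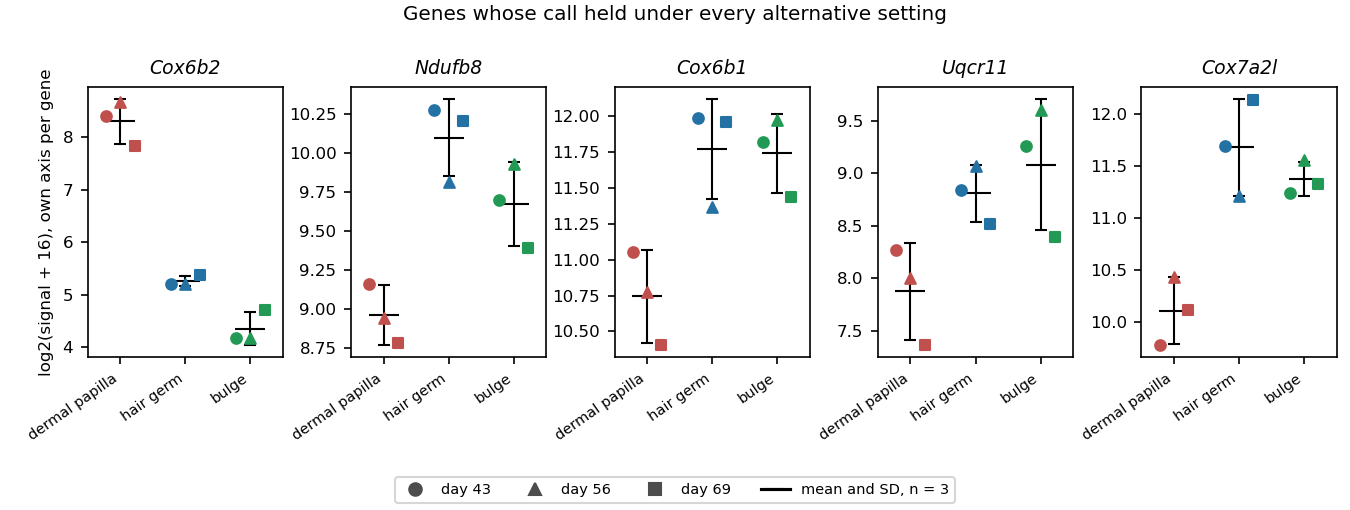
Levels of the 5 subunit genes whose difference between dermal papilla and the epithelial mean passed under every alternative run. Each point is 1 array (symbol: postnatal day), the bar is the mean and SD of 3 days, the vertical axis is log2(signal + 16) with its own range per gene and does not start at 0; in each panel the 3 dermal papilla points are separated from the 6 epithelial points.

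The promoters of 4 of these genes are shown because their transcripts differed between the same cells in a way that held, upward for Cox6b2 and downward for Cox6b1, Uqcr11 and Ndufb8. Each run is 300 bases from RefSeq on build GRCm38.p6, from 250 bases before the transcription start to 50 after it, 5′ to 3′ on the gene's strand (the minus strand for all 4). Capitals mark matches to 4 motifs searched on both strands: GCATGCGC (NRF1, nuclear respiratory factor 1), CCGGAAG (ETS family, to which GABP belongs), AAGATGGC (YY1) and TCAAGGTCA (ERR, estrogen-related receptor).
Cox6b2, chr7:4753045-4753344: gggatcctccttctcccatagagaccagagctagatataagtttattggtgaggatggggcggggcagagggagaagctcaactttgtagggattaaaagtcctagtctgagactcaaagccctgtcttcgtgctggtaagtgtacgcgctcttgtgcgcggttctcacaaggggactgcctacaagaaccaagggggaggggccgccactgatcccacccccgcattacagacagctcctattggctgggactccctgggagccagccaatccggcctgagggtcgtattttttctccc
Cox6b1, chr7:30626065-30626364: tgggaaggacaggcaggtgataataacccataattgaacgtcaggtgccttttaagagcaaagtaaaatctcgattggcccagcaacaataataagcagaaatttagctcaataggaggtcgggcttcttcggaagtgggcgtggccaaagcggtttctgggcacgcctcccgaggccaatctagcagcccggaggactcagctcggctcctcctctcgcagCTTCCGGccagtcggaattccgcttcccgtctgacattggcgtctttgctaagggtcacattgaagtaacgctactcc
Uqcr11, chr10:80406772-80407071: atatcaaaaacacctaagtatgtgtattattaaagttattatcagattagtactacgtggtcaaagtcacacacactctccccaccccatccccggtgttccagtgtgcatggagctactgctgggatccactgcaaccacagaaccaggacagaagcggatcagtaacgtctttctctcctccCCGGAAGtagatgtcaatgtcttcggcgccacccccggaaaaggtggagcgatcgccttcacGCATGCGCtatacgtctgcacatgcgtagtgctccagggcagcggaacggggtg
Ndufb8, chr19:44555393-44555692: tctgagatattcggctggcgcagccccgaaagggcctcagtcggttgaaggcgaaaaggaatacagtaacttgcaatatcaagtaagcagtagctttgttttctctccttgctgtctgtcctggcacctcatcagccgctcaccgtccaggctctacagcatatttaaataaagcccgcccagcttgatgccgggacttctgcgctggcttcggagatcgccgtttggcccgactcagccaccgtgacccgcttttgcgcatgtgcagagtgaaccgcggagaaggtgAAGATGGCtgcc
The Cox6b2 window held none of the 4 motifs. The Cox6b1 window held the ETS letters on the opposite strand, the Uqcr11 window held both the ETS and the NRF1 letters, and the Ndufb8 window held the YY1 letters downstream of the start. NRF1, GABP and YY1 are known regulators of nuclear-encoded respiratory genes. A promoter window was found for 64 of the 78 genes. The NRF1 letters were in 14.1% of these 64 windows, against 3.05% of the windows of all 27025 genes listed and 6.64% of those of the 6359 tested genes with a window. The YY1 letters were in 14.1%, against 3.19% and 5.82%. The ETS letters were in 26.6%, against 9.93% and 21.8%, and the ERR letters in 3.13%, against 0.466% and 0.346%. In all, 30 of the 64 windows held at least 1 motif, and 4 of the 11 windows of genes that passed between dermal papilla and epithelium did. A match of letters is a description and not a bound site.

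The remaining complex III genes that passed were lower by smaller amounts. Uqcrfs1, the Rieske iron-sulfur protein that carries electrons in complex III, was at 7.86, 8.51 and 8.96 in dermal papilla, at 9.41, 9.06 and 9.06 in hair germ and at 9.20, 9.19 and 9.64 in bulge. It did not overlap, with a difference of -0.82 ± 0.23 (limma, adjusted p = 0.0143). Without the day 43 dermal papilla array, where it was lowest, the difference was -0.50 (limma, adjusted p = 0.12). Uqcrq, a small accessory subunit, differed by -0.68 ± 0.22 (limma, adjusted p = 0.0297), with 7.87, 7.63 and 7.32 in dermal papilla, 9.19, 8.24 and 8.14 in hair germ and 8.08, 8.47 and 7.60 in bulge, so that the day 69 bulge array fell within the dermal papilla range. Uqcrh, the hinge protein beside cytochrome c1, and Uqcrc2, a core protein, differed by -0.62 and -0.57 (limma, adjusted p = 0.0383 and 0.0487), and were named after their values were seen. Of the 3 complex III genes that did not pass, Uqcrb and Uqcrc1 differed by -0.37 and -0.38 and Uqcr10 by 0.40.

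In complex IV, Ndufa4 was lower by -0.78 ± 0.26 (limma, adjusted p = 0.0337), at 7.11, 7.83 and 7.57 in dermal papilla, 9.19, 8.31 and 8.12 in hair germ and 7.98, 8.26 and 7.82 in bulge. The day 69 bulge array lay within the dermal papilla range. Without the day 43 dermal papilla array the difference was -0.43 (limma, adjusted p = 0.247). Cox7c, a small accessory subunit, was higher by 0.59 ± 0.20 (limma, adjusted p = 0.036), at 7.23, 7.59 and 7.04 in dermal papilla, 6.72, 7.06 and 7.04 in hair germ and 6.37, 6.47 and 6.52 in bulge, with dermal papilla and hair germ overlapping. The isoforms Cox4i1, Cox6a1 and Cox8a, which serve most tissues, differed by 0.32, -0.10 and -0.17 and did not pass, nor did Cox8c, a testis isoform, at -0.16. Cox5a and Cox5b, which line the matrix side, differed by -0.30 and -0.37 and did not pass either.

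In the catalytic core of complex I no gene passed. Ndufs1, Ndufs3, Ndufs7, Ndufs8, Ndufv1 and Ndufv2, which carry the flavin and iron-sulfur centres or hold them, differed by 0.02, 0.15, -0.20, -0.01, -0.18 and -0.20. Besides Ndufb8, the accessory subunit Ndufb5 was lower by -0.48 ± 0.17 (limma, adjusted p = 0.0462), and was named after its value was seen. Complex II differed by -0.11 in Sdha, the flavoprotein, -0.16 in Sdhb, the iron-sulfur subunit, and -0.01 and -0.19 in the membrane anchors Sdhc and Sdhd, and none passed. In complex V, Atp5c1, the rotating gamma subunit, was at 10.31, 10.63 and 10.60 in dermal papilla, 11.55, 11.22 and 10.80 in hair germ and 11.08, 11.19 and 11.37 in bulge. All dermal papilla arrays were lower, by -0.69 ± 0.21 (limma, adjusted p = 0.0216). The catalytic beta gene Atp5b and its partner alpha, Atp5a1, differed by -0.22 and -0.34 and did not pass. The c-ring genes Atp5g1, Atp5g2 and Atp5g3, which encode the same mature protein, differed by -0.23, -0.07 and -0.32, also without passing.

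**Figure D3:**
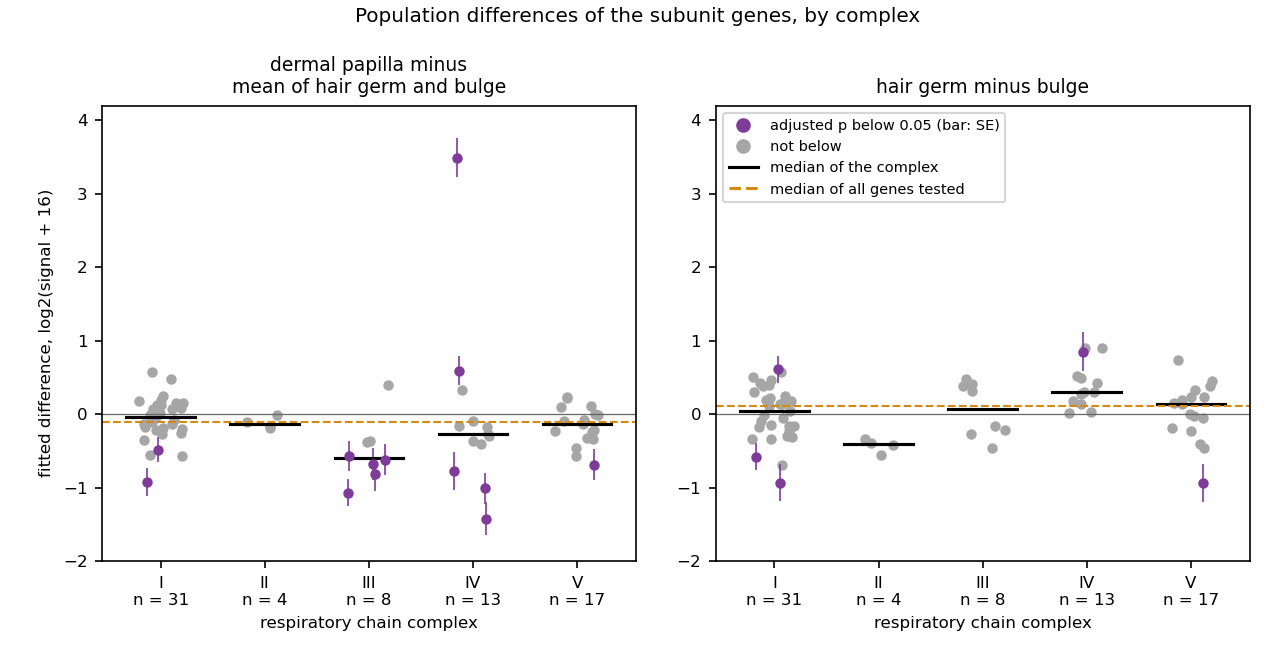
Fitted differences of the 73 tested subunit genes by complex, for dermal papilla against the epithelial mean (left) and hair germ against bulge (right), in log2(signal + 16). Purple points have an adjusted p below 0.05, with their SE as bars, grey points do not, black lines are medians of a complex, and the dashed line is the median of all 7796 genes tested; at left the purple points gather in complexes III and IV with Cox6b2 at 3.49, and at right they are 5, between -0.94 (Atp5g2) and 0.85 (Cox5a).

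The median difference of the 73 genes was -0.16, beside -0.10 for all genes tested, and 51 of the 73 were negative. By complex the median was -0.04 in complex I, -0.13 in complex II, -0.59 in complex III, -0.27 in complex IV and -0.13 in complex V. Under quantile normalization the median of the 73 was -0.03, and 4 were higher and 6 lower; with each array centred on its median, 3 were higher and 7 lower. Leaving out single arrays gave 6 to 15 genes, with 8 without the day 43 bulge array, 7 without that of day 56, 8 without that of day 69, and 6 without the day 43 or the day 56 dermal papilla array. Proliferation markers were lowest in dermal papilla, with a summed signal of 5 genes of 49.8 to 172 there, 2733 to 8278 in hair germ and 219 to 392 in bulge, and their part in this and the following comparisons was not tested. Without the 3 arrays of high GAPDH ratio 6 passed, and 7 did without the pair of early dermal papilla and late hair germ arrays. Besides the 5 genes that held, Uqcrfs1 passed in 19 of 21 alternatives, Atp5c1 in 16 of 21, Ndufa4 in 13 of 21, Uqcrq and Cox7c in 10 of 20 each, Uqcrh in 9 of 21, Ndufb5 in 5 of 21 and Uqcrc2 in 5 of 20. For Atp5c1 the probe set without a suffix gave -0.31 (limma, adjusted p = 0.397). Where several probe sets of a gene were kept, 28 of 38 genes had the same sign in all of them, as did all 5 of the genes among these that passed. Atp5c1, Uqcrq and Cox7c were each read from a probe set whose ID ends in _s_at, which can match several transcripts, so related sequences may add to their signal.

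Each epithelial population was also set against dermal papilla, with the same dermal papilla arrays in both. Against hair germ, 1 subunit gene was higher and 12 lower (all genes: 15.5% higher and 23.8% lower). Against bulge, 2 were higher and 9 lower (all genes: 16.1% and 19%). Uqcrc2 was lower than in hair germ by -0.77 (limma, adjusted p = 0.0256), as was the complex V subunit Atp5d by -0.79 (limma, adjusted p = 0.0291). The Atp5d call held in 10 of 20 alternatives, and its difference was -0.48 without the day 69 hair germ array and -0.26 without the high-ratio arrays. Ndufs4, an accessory subunit whose loss causes Leigh syndrome in humans, was lower than in bulge by -1.04 ± 0.25 (limma, adjusted p = 0.00754), at 7.11, 6.91 and 7.83 in dermal papilla, against 8.24, 8.19 and 8.55 in bulge. Cox7c was higher than in bulge by 0.83 ± 0.23 (limma, adjusted p = 0.0158). Without the 3 arrays of high GAPDH ratio, which leaves 1 hair germ array assumed to vary like the others, only Cox6b2 passed against hair germ, while 9 genes passed against bulge. Quantile normalization turned the split against hair germ to 5 higher and 8 lower, centring to 3 and 6, and the split against bulge under quantile normalization was 3 higher and 7 lower.

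The second comparison set hair germ, the part of the follicle epithelium next to the dermal papilla, against bulge, which the design text names as an aim. Few subunit genes differed: 2 were higher and 3 lower in hair germ, 6.85% of 73, while 12.2% of all genes were higher and 7.56% lower, 19.8% together. Among the 784 brighter genes 17.7% passed, and 1 of the 37 subunit genes at that level did. No subunit gene differed by 2-fold, against 14.7% of all genes.

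Cox5a, a complex IV subunit, was at 11.77, 11.25 and 12.22 in hair germ and at 11.09, 11.07 and 10.52 in bulge, higher in hair germ by 0.85 ± 0.27 (limma, adjusted p = 0.0496). Its 3 probe sets gave 0.85, 0.72 and 0.71. Without the day 69 hair germ array the difference was 0.52, and without the day 69 bulge array 0.55 (limma, adjusted p = 0.153 and 0.266). Ndufa10, an accessory subunit of complex I, was at 9.88, 9.88 and 10.07 in hair germ and 9.29, 9.41 and 9.31 in bulge, higher by 0.61 ± 0.19 (limma, adjusted p = 0.0429). For both genes the groups did not overlap.

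On the lower side, Ndufs4 was at 7.45, 7.51 and 7.22 in hair germ and 8.24, 8.19 and 8.55 in bulge, a difference of -0.93 ± 0.25 (limma, adjusted p = 0.0253), and its other kept probe sets gave -0.08 and -0.78. Ndufs3, a core subunit of complex I, was at 8.32, 8.60 and 8.52 in hair germ and 8.92, 9.21 and 9.06 in bulge, a difference of -0.58 ± 0.18 (limma, adjusted p = 0.0483). Atp5g2, a c-ring gene, was at 8.0, 9.51 and 8.72 in hair germ and 9.62, 9.80 and 9.63 in bulge, a difference of -0.94 ± 0.26 (limma, adjusted p = 0.0275). All 3 were lower in hair germ on each day. The other c-ring genes differed by -0.46 for Atp5g1 and 0.32 for Atp5g3 and did not pass. In complex II all 4 genes had negative values and none passed, with -0.42 for Sdha, -0.40 for Sdhb, -0.56 for Sdhc and -0.33 for Sdhd. All 13 complex IV genes had positive fitted differences, with a median of 0.30 and Cox6a1 at 0.90 ± 0.29 (limma, adjusted p = 0.0543). The smallest were 0.02 for Cox8a and 0.03 for Cox6b1. Array medians were 5.89, 6.13 and 6.18 in hair germ and 5.87, 5.81 and 5.89 in bulge, so the sign of small differences depends on scaling. The sign was not shared by every day. On day 56, when the hair germ GAPDH ratio was 2.97, Cox4i1, Cox5b, Cox6b1, Cox6c, Cox7a2 and Cox7a2l were lower in hair germ. Their differences that day were -0.31, -0.44, -0.60, -0.31, -0.28 and -0.36. The rest of complex IV was positive on day 56, with Cox6a1 at 0.01. Cox8c was lower in hair germ on day 43, at -0.57, and Cox8a on day 69, at -0.09.

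These hair germ calls did not hold in every setting: of 21 alternatives Atp5g2 and Ndufs4 passed in 14 each, Ndufa10 in 8, and Cox5a and Ndufs3 in 6 each. Without the high-ratio arrays Cox5a differed by 0.38, Atp5g2 by -0.24 and Ndufs4 by -0.55. None of the 5 genes passed without the day 43 or the day 69 bulge array, without the day 69 hair germ array or without the 3 arrays of high GAPDH ratio (limma; 6, 8, 12 and 2 subunit genes had an unadjusted p below 0.05 there). Without the day 43 hair germ array 1 passed, and without the day 56 dermal papilla array 2. The median difference of the 73 genes was 0.14, beside 0.10 for all genes, and became -0.07 under quantile normalization (all genes -0.05) and -0.07 under median centring (all genes -0.11). The split was 1 higher and 4 lower under quantile normalization and 0 and 4 under centring. Without the high-ratio arrays the median was -0.13. Of 38 genes with several kept probe sets, 19 had the same sign in all of them for hair germ against bulge, and 19 did not. The 2 passing genes among them had the same sign in all. The proliferation marker Mki67 averaged 10.84 in hair germ and 6.73 in bulge, and its part in the result was not tested.

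Lists of genes around the respiratory chain were read in the same fit. The lists were chosen with earlier results of these data known, and their counts stand beside the 16.6% higher and 23.7% lower among all genes, 40.3% together. Of 12 tested genes of cytochrome c, carriers and membrane channels, 2 were higher and 6 lower in dermal papilla, 66.7% of the list. The ADP/ATP carriers split: Slc25a4, the muscle-type isoform, was at 11.52, 11.03 and 10.74 in dermal papilla, 10.01, 10.12 and 10.35 in hair germ and 10.18, 9.91 and 10.09 in bulge, higher by 0.99 ± 0.20 (limma, adjusted p = 0.00223). Slc25a5, the isoform of growing cells, averaged 10.48 ± 0.46 in dermal papilla, 11.31 ± 0.17 in hair germ and 11.36 ± 0.14 in bulge (SD, n = 3 days), lower by -0.86 ± 0.20 (limma, adjusted p = 0.00536, and named after its value was seen). Neither carrier's dermal papilla arrays overlapped the epithelial ones. Ckmt1, the mitochondrial creatine kinase, was at 4.58 ± 0.30 in dermal papilla, below the array medians, and at 10.09 ± 0.23 in hair germ and 10.43 ± 0.11 in bulge (SD, n = 3 days).

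Of 16 tested regulators of mitochondrial biogenesis, 0 were higher and 6 lower in dermal papilla, 37.5% of the list, near the 40.3% of all genes. Ppargc1b, a coactivator of respiratory genes, was at 4.97, 5.37 and 6.0 in dermal papilla, 7.93, 7.96 and 8.15 in hair germ and 6.94, 7.34 and 7.13 in bulge, lower by -2.13 ± 0.22 (limma, adjusted p = 1.63e-05). All 3 dermal papilla values were below their array medians, so the size depends on the floor, at -2.37 with a pseudocount of 8 and -1.38 with 64. Its relative Ppargc1a fell by 1.40 (limma, adjusted p = 0.00389), its partner Esrra, the estrogen-related receptor alpha, by 1.02 (limma, adjusted p = 0.00242). Ppargc1a was also below the array median on all 3 dermal papilla arrays, and its difference was -0.80 with a pseudocount of 64. Myc, a growth regulator, differed by -2.48 ± 0.38 (limma, adjusted p = 0.000307). Tfam, which packages and transcribes mitochondrial DNA, averaged 7.42 in dermal papilla, 7.40 in hair germ and 7.44 in bulge, a difference of 0.00 ± 0.20 from the epithelial mean. Between hair germ and bulge 5 of the 16 were higher and 1 lower in hair germ, 37.5% beside 19.8% of all genes. Nrf1 was at 8.11, 7.73 and 8.33 in hair germ and 6.30, 6.38 and 6.76 in bulge, higher by 1.58 ± 0.26 (limma, adjusted p = 0.00174), and did not pass without the 3 high-ratio arrays. Pprc1, another coactivator of the family, was higher by 1.39 ± 0.21 (limma, adjusted p = 0.00107). Ppargc1a was lower, with 5.88, 6.07 and 5.24 in hair germ and 6.65, 7.12 and 7.96 in bulge (-1.51 ± 0.36, limma, adjusted p = 0.0141). Its hair germ values were all below their array medians, and the size was -1.68 with a pseudocount of 8 and -0.99 with 64. It did not pass without the day 69 bulge array, without the high-ratio arrays or without the early dermal papilla and late hair germ arrays.

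Among 34 tested assembly factors, 4 were higher and 3 lower in dermal papilla. Acad9, a complex I assembly factor, was lower by -1.47 ± 0.20 (limma, adjusted p = 0.000113), and Cox20, which helps build complex IV, was higher by 0.84 ± 0.19 (limma, adjusted p = 0.00376). Of 14 citric acid cycle genes 2 were higher and 2 lower. Cs, citrate synthase, often used as a gauge of mitochondrial content, averaged 9.79 ± 0.17 in dermal papilla, 11.30 ± 0.27 in hair germ and 10.59 ± 0.11 in bulge (SD, n = 3 days). The populations did not overlap, with a difference of -1.16 ± 0.17 for dermal papilla (limma, adjusted p = 0.000239) and of 0.71 ± 0.20 for hair germ over bulge (limma, adjusted p = 0.0294). Pdk1, a kinase that shuts pyruvate out of the cycle, was at 7.23 ± 0.16 in dermal papilla, 9.72 ± 0.39 in hair germ and 10.20 ± 0.49 in bulge, lower in dermal papilla by -2.73 ± 0.22 (limma, adjusted p = 2.75e-06). Of 12 glycolysis genes 2 were higher and 5 lower in dermal papilla, with Pfkp, the platelet-type phosphofructokinase, at -2.71 ± 0.24 (limma, adjusted p = 5.05e-06). Higd1a, a hypoxia-induced gene whose protein binds the respiratory chain, was higher in hair germ than in bulge by 1.63 ± 0.22 (limma, adjusted p = 0.000593), at 10.60, 10.17 and 10.39 in hair germ and 9.06, 8.95 and 8.26 in bulge. Of 74 mitochondrial ribosomal protein genes 1 was higher and 2 lower in dermal papilla, a share of 4.05%, and of 45 cytosolic ones 3 and 9. The plot of shares by list sets these beside the subunit genes. The mitochondrially encoded ND5, the array's 1 probe set of its kind in use here, was at 10.54 ± 0.52 in dermal papilla, 11.25 ± 0.50 in hair germ and 10.51 ± 0.20 in bulge and did not pass in either contrast (limma, adjusted p = 0.258 and 0.0664).

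**Figure D4:**
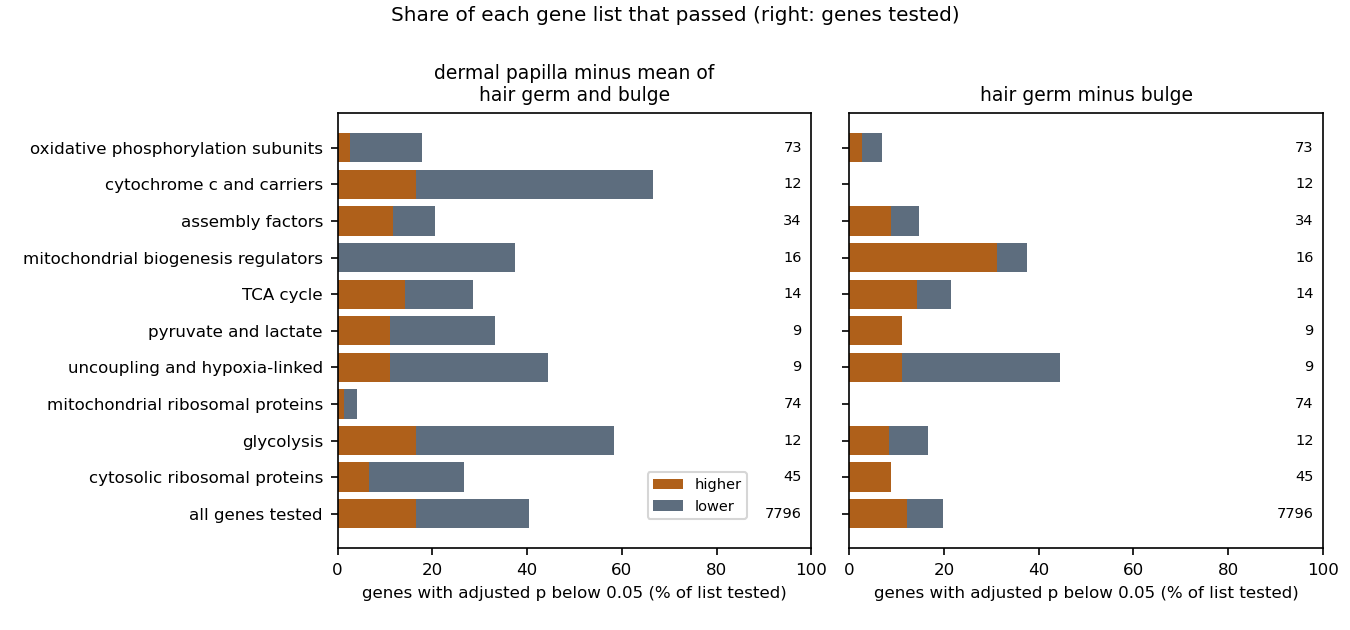
Share of genes with an adjusted p below 0.05 (horizontal axis, percent of the genes tested, whose number stands at the right) in the subunit genes, in 9 accompanying lists and in all genes tested, for dermal papilla against the epithelial mean (left) and hair germ against bulge (right). Brown is higher and grey lower; the subunit genes reach 17.8% at left and 6.85% at right, below all genes at 40.3% and 19.8%.

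The last comparison asked whether the genes changed over telogen. With the 3 populations fitted together, 0 of 73 subunit genes passed between day 56 and day 43 and 0 between day 69 and day 43, as was so for all 7796 genes (0% passed in either; limma). At an unadjusted p below 0.05 there were 3 and 6 subunit genes, beside 398 and 565 of all genes. Between days 69 and 43 the smallest unadjusted p belonged to Uqcr11, at -0.70 ± 0.22, and Uqcrh, at 0.73 ± 0.25 (limma, adjusted p = 0.679 and 0.68). Uqcr11 was lower on day 69 in all 3 populations, with differences of -0.90 in dermal papilla, -0.32 in hair germ and -0.87 in bulge, and Uqcrh was higher in all 3. Between days 56 and 43 Ndufa7, an accessory subunit of complex I, differed by 0.74 ± 0.24 and Atp5g2 by 0.80 ± 0.26, both upward in each population (limma, adjusted p = 0.845 for both). Without the 3 arrays of high GAPDH ratio 0 genes passed in either day comparison, and Ndufa7 differed by 0.38, Atp5g2 by 0.12, Uqcrh by 0.13 and Uqcr11 by -0.73. Without the day 43 hair germ array Ndufa7 differed by 0.47, and without that of day 56 Atp5g2 differed by 0.51. The median of the 73 genes between days 56 and 43 was -0.05 over all arrays and 0.12 without the high-ratio ones.

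Within a population there was 1 array per day, so the days are given with no test. In dermal papilla the median difference of the 73 genes was -0.20 between days 56 and 43 and -0.19 between days 69 and 43, and 41 of them were highest on day 43. The medians of all genes were 0.04 and 0.07, and 2510 of 7796 were highest on day 43. That array had a GAPDH ratio of 6.62 and more epithelial signal, whose part was not tested. With probe sets without a suffix the medians of the subunit genes turned to 0.15 and 0.12, and the hair germ median between days 56 and 43 turned to 0.05. These medians cover only the genes that have such a probe set. The complexes differed among themselves in dermal papilla: between days 69 and 43 complex I had a median of -0.38 and complex V of 0.12. Ndufa13, an accessory subunit also known as GRIM-19, was at 12.09, 11.26 and 10.86 on days 43, 56 and 69, and Uqcrfs1 ran the other way, at 7.86, 8.51 and 8.96. In hair germ the medians were -0.18 and -0.01, and complex II was lower on day 69 than on day 43 in all 4 genes, with a median of -0.69. Ndufa9, a complex I subunit at the membrane junction, was at 9.80, 9.42 and 7.98 on days 43, 56 and 69 in hair germ, while the small subunit Uqcrh was at 7.45, 8.33 and 8.64.

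In bulge, where the GAPDH ratios were closest together, most subunit genes were highest on day 56 and lowest on day 69. The median difference was 0.16 between days 56 and 43, with 60 of 73 positive, and -0.40 between days 69 and 56, with 59 of 73 negative. The median of all genes was 0.00 and 0.01 for the same pairs, with 3929 and 4014 of 7796 positive. Day 56 was the highest day for 54 of the 73 genes and day 69 the lowest for 51. In complex I 30 of 31 genes were lower on day 69 than on day 56 (median -0.56), beside 14 of 17 in complex V (median -0.38). In complex II the median was 0.16. Atp5k, the ATP synthase e subunit, was at 10.84, 11.31 and 9.88 in bulge on days 43, 56 and 69, and Ndufc1, a small complex I subunit, at 10.71, 10.77 and 9.63. Mitochondrial ribosomal protein genes had a median of -0.21 and cytosolic ones of -0.24 for days 69 and 56 in bulge, so the direction was shared with those lists. The actin 3'/5' ratio in bulge was 6.0, 6.60 and 5.01 on the 3 days, highest on day 56 and lowest on day 69 like the GAPDH ratio and like the subunit genes, and its part in the pattern was not tested.

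**Figure D5:**
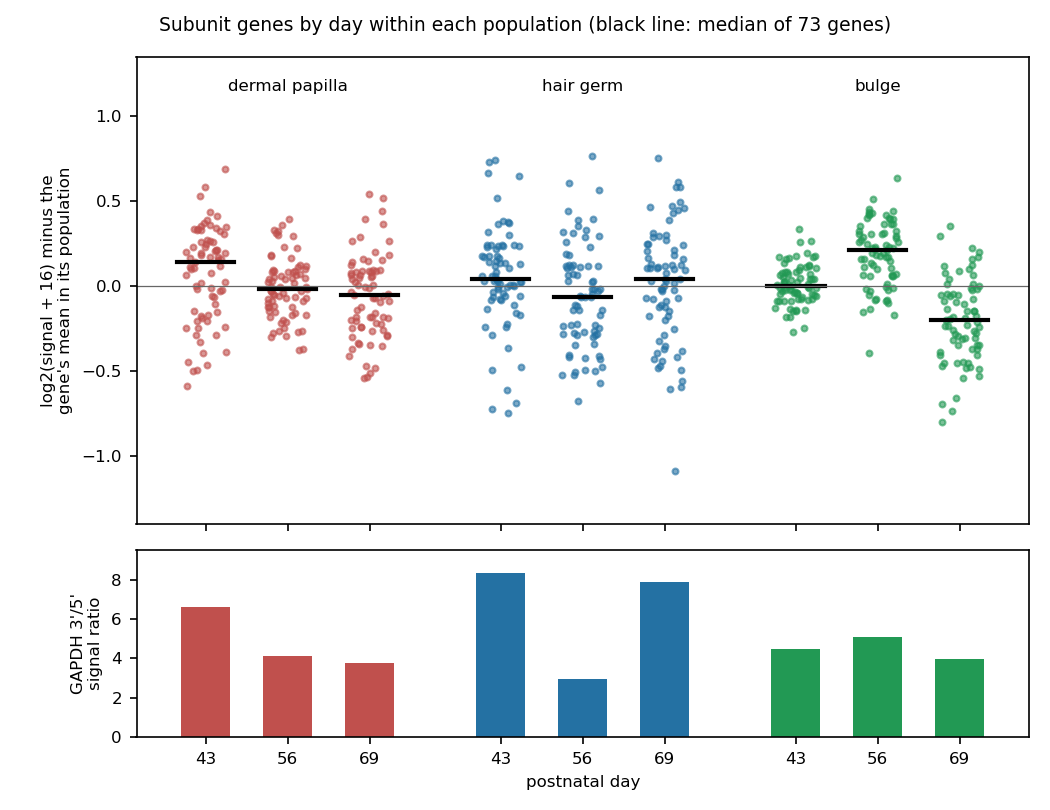
Each tested subunit gene's log2(signal + 16) minus its mean over the 3 days of its population (upper panel, 1 point per gene, black lines are medians of 73 genes) and the GAPDH 3'/5' signal ratio of the array (lower panel), by population and postnatal day. The medians for bulge were 0.00, 0.21 and -0.20 in day order, and those for dermal papilla 0.14, -0.02 and -0.05.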

How the data were processed

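The authors deposited probe set signals of 9 Affymetrix arrays, linear intensity values; per the submitters' processing notes GCOS and MAS5 were used, whose versions and scaling are not given in the sources used here. Per the labels, RNA went through repeated amplification before hybridisation.

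From these intensities log2(signal + 16) was taken without further scaling. Probe sets brighter than the array median on 3 or more of 9 arrays were kept, 12801 of 22690 (64 control probe sets on the array were left out), and a gene was read from its brightest kept probe set, which gave 7796 genes. Genes were named from the platform annotation supplied. Population and day entered an additive linear model over the 9 arrays in R 4.3.3 with limma 3.58.1 (lmFit, eBayes with trend, 4 residual degrees of freedom). Benjamini-Hochberg adjustment ran over all 7796 genes, and an adjusted p below 0.05 passed. The steps were tested on simulated data. No count depth exists for arrays, so their number limits the precision.

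The alternatives were pseudocounts of 8 and 64, quantile normalization, median centring, no filter, a filter in all 9 arrays, the mean of a gene's probe sets, probe sets without a suffix, no variance trend, no day term, each array left out, and the arrays with a GAPDH ratio above 6 left out. Leaving out the early dermal papilla array together with the late hair germ array was chosen after seeing the data. Same-day arrays of different populations had deviations that correlated at -0.10 to 0.18 across genes, which does not settle whether days pair the samples.

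The members, the gene lists and the rule for named genes were chosen with earlier results of these data known. Named were, per contrast, up to 8 passing members in each direction with the same sign on every day (5 smallest p where fewer than 5 passed), isoform families, core subunits, the 4 largest day differences in each direction per population, and up to 4 passing genes per accompanying list; exceptions are marked. Promoter windows came from RefSeq on GRCm38.p6.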

Additional observations from a re-analysis of the deposited data

Results flagged for a closer look

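Between days 56 and 43 the subunit genes had a median of opposite sign in bulge and in the other populations, and with 1 array per population and day the difference was not tested. The median difference of the 73 genes between days 56 and 43 was -0.196 in dermal papilla and -0.18 in hair germ but 0.161 in bulge. With probe sets without a suffix the medians were 0.15 in dermal papilla and 0.051 in hair germ. That setting also leaves out genes with no such probe set, so the choice of probe sets and of genes cannot be told apart. Single genes whose day 69 and day 43 arrays differed by at least 0.5 in opposite directions in different populations, with a gap of at least 1.5, were Atp5k, at -0.516 in dermal papilla, 0.704 in hair germ and -0.968 in bulge, Ndufa9, at 0.539 in dermal papilla and -1.82 in hair germ, and Sdhd, at 0.84 in dermal papilla and -0.672 in hair germ. Both hair germ arrays in these differences had GAPDH 3'/5' ratios near 8 (8.34 and 7.90), and the part of this ratio was not tested.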

How the results depend on the processing

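The number of subunit genes passing, 13 for dermal papilla against the epithelial mean, 5 for hair germ against bulge, 13 for dermal papilla against hair germ and 11 for dermal papilla against bulge, moved by over 1.5 times as follows. The setting of probe sets without a suffix drops every gene with no such probe set kept, so its counts and medians cover fewer genes. Cox7a2l, Ndufb8, Cox7c, Uqcrc2 and Uqcrq were among the genes dropped. With probe sets without a suffix the counts were 7 against the epithelial mean, 7 against hair germ and 7 against bulge. Without the arrays of high GAPDH ratio they were 6 against the epithelial mean, 0 for hair germ against bulge and 1 for dermal papilla against hair germ, and without the early dermal papilla and late hair germ arrays 7, 0 and 5 (limma; 2 and 7 hair germ against bulge genes had an unadjusted p below 0.05). Hair germ against bulge gave 2 with no filter and 3 with no variance trend. Replicate numbers are days, and with no replicate block the counts were 13, 5, 14 and 10, with the hair germ split turning to 4 higher and 1 lower. Leaving out single arrays gave 6 to 15, 0 to 5, 6 to 14 and 5 to 11. The median difference against the epithelial mean was -0.028 with quantile normalization. The median against hair germ, -0.12, was 0.055 with quantile normalization, 0.032 with median centring, -0.17 with no filter, -0.147 with the filter in all 9 arrays, -0.153 with the mean of probe sets, -0.088 without suffixes, -0.141 without the high-ratio arrays, -0.152 without the other array pair and -0.24 to -0.087 without single arrays; the all-gene median of -0.15 was 0.01 and 0.00 under the scalings. Between days 69 and 43 the median of -0.14 was -0.30 with centring, -0.033 without suffixes and -0.21 to -0.042 without single arrays. In dermal papilla the median without suffixes was 0.15 for days 56 and 43 and 0.12 for days 69 and 43, which was -0.35 with centring. In hair germ the median for days 56 and 43 was -0.41 with centring and 0.051 without suffixes, and that for days 69 and 43 was -0.17 with quantile normalization, -0.29 with centring and -0.11 without suffixes. The cause of these shifts was not tested. Over the single genes followed, 1516 values kept direction and side of the threshold, 292 kept direction and no longer passed, and 0 changed direction. Many of these genes were chosen for passing with the same sign on every day, so a change of direction was unlikely from the start. The 1516 also include genes of the day comparisons, which had not passed in the main fit. Where a group's signal lies below the array median, as for Cox6b2 in epithelium, the size of the difference moves with the pseudocount.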

Other observations

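Some genes of lactate and sugar metabolism passed between dermal papilla and the epithelial mean, where 40.3% of all genes did. Of 9 tested genes of pyruvate and lactate handling, 1 was higher and 2 lower, 33.3%. Ldhb, the heart-type lactate dehydrogenase subunit, was higher in dermal papilla by 0.97 (limma, adjusted p = 0.00189). Ldha, the muscle-type subunit, was at -1.07 (limma, adjusted p = 0.0228), but at -0.43 without the day 43 dermal papilla array (limma, adjusted p = 0.167). Of 12 glycolysis genes 7 passed, 58.3%, among which Eno2, the neuronal enolase, was higher by 2.15 (limma, adjusted p = 0.000226; 1.22 with a pseudocount of 64), while Hk2, an inducible hexokinase, was at -1.79 (limma, adjusted p = 0.000817). Of 9 uncoupling and hypoxia-linked genes 1 was higher and 3 lower, 44.4%, near the share of all genes, with Egln3, an oxygen-sensing prolyl hydroxylase, at -2.41 (limma, adjusted p = 6e-05).

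Cytosolic ribosomal protein genes were higher on day 69 than on day 56 in hair germ for 38 of 45 genes, with a median of 0.62, and lower in bulge for 40 of 45, with a median of -0.24. Of all 7796 genes, 4108 were higher in hair germ (median 0.04) and 3782 lower in bulge (median 0.01) between the same days. The hair germ GAPDH ratio was 2.97 on day 56 and 7.90 on day 69, and its part was not tested. These are values of 1 array per day, with no test.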
